A study of Homo sapiens with 6 samples.

Results

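The genes that license, start and run DNA replication, with the cyclin, kinase and transcription factors of the G1/S transition, were followed in A375 cells, a human melanoma line, that overexpressed HMGB2. The set held 53 genes, listed by name and matched to 53 of the 58302 Ensembl IDs in the count tables. It was compared between 3 libraries of cells stably carrying an empty vector and 3 libraries of cells stably overexpressing HMGB2, a chromatin protein that bends DNA. Both lines were made by lentiviral transduction and drug selection, and the promoter that drives HMGB2 on the vector was not given in the sources used here. The study asked how melanoma cells trade growth for invasion, and replication genes are transcribed chiefly in cells that divide. Its reporting form describes the 3 replicates of a group as technical, so all p-values measure only the spread between these samples and not between separate transductions.

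Before S phase, the origin recognition complex, CDC6 and CDT1 load the MCM2–7 helicase onto origins, which is called licensing. Cyclin E with CDK2 releases the E2F factors from the retinoblastoma protein, and E2F1 then raises the transcription of licensing and fork genes. Once S phase has begun, geminin, the product of GMNN, binds CDT1 and CDT1 protein is destroyed, so that no origin is licensed again. Geminin and CDT1 protein therefore mark different parts of the cycle, which is the basis of the FUCCI cell cycle reporters. CDC45 and the GINS complex then activate the helicase, and primase, the polymerases, the sliding clamp PCNA and its loader copy the strands.

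RNA selected through its poly(A) tail was sequenced, and reads falling in a single gene numbered between 45925053 and 56755212 per library (exact two-sided permutation p = 0.8 between groups, and 3 against 3 libraries cannot give a p under 0.1). The 53 genes took between 0.379% and 0.416% of them. Values are normalized counts, which are counts divided by a size factor of the library. HMGB2 had 7250, 7729 and 7562 normalized counts in the empty vector libraries and 15095, 16848 and 14609 in the overexpression libraries, which is 1.05 on the log2 scale (SE 0.10, adjusted p = 4.4e-22 by DESeq2), with vector and cellular HMGB2 counted together. Of 12 melanocyte and melanoma markers, PRAME (8096 to 9294), S100B (3346 to 3841) and MITF (1381 to 1719) were present, whereas MLANA, TYR and DCT stayed under 11 in every library. SOX10 was listed at 0 in the count used, though 253416 reads fell on it when the strands were counted apart. These can include reads of POLR2F, which overlaps SOX10 on the other strand. Among 10 markers of other cell types, PTPRC was at 0, CD3E stayed under 2, and KRT5, singled out after its values were seen, had 5.05 and 11.5 in empty vector replicates 1 and 2 against 200 to 289 in the other 4 libraries. The part of these other markers in any result was not tested.

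The promoters of 4 members, picked by name among those with a match, are shown first, because the E2F motif was frequent among the members. RefSeq promoter windows on GRCh38.p14, which run from 250 bases before to 50 bases after a start site, were found for 44 of the 53 genes. The letters TTTCCCGC, TTTCGCGC, TTTGCCGC or TTTGGCGC were searched on both strands, and overlapping matches were counted once per gene. At least 1 match was held by 23 of the 44 genes (52.3%), beside 1090 of 27305 genes in all (3.99%). CCAAT, the letters bound by the NF-Y factor, stood in 63.6% of the members' windows by gene and in 39.7% of all genes. TTTGAA, the CHR element of late cell cycle genes, stood in 1 member, RRM1 (2.27%), in 18.2% of all genes and in 78.9% of 38 G2/M genes. A match describes letters and not binding. The 250 bases before the start are given 5′ to 3′, with the E2F letters of either strand in capitals, for CDT1 (chr16:88803539-88803788, plus strand), GMNN (chr6:24775163-24775412, plus strand), PCNA (chr20:5126623-5126872, minus strand) and E2F1 (chr20:33686386-33686635, minus strand).
CDT1: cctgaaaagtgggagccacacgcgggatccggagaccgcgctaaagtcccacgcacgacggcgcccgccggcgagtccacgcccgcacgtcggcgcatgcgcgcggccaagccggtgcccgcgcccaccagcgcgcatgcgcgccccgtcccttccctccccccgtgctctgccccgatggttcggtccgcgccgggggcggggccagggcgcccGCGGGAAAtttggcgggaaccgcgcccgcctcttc
GMNN: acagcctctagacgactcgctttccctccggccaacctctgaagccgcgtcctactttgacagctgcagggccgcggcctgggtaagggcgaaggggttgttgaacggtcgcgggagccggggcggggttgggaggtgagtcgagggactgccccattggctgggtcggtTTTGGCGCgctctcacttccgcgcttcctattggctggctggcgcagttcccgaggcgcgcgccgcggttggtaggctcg
PCNA: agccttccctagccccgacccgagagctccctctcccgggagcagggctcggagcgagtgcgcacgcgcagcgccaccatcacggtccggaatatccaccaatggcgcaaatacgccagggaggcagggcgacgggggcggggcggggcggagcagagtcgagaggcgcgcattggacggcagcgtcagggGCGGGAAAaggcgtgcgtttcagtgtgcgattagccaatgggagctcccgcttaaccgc
E2F1: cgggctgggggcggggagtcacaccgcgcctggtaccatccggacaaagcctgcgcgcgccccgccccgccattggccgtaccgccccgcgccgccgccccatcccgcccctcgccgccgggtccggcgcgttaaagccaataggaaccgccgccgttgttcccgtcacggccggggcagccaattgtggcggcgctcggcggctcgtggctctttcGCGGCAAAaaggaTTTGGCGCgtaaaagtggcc
That all 4 hold the motif follows from how they were picked and is not a result. CDT1 and E2F1 fell with HMGB2 overexpression, while GMNN and PCNA had positive log2 fold changes that did not pass the test. RPA1 had a smaller unadjusted p than GMNN and PCNA (DESeq2, 0.0046 against 0.054 and 0.069) and held no match.

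As a group the replication genes moved little. All 53 received an adjusted p, and 0 were called higher and 2 were called lower, CDT1 and E2F1 (DESeq2, Benjamini-Hochberg adjusted p under 0.05). Over all 18836 genes with an adjusted p, 4.94% were called, 2.29% higher and 2.64% lower. At an unadjusted p under 0.05 there were 5 members (9.43%), beside 14.3% of all genes, and they were CDT1 and E2F1 on the lower side and GINS1, RPA1 and E2F8 on the higher. EdgeR called 0 members higher and only CDT1 lower, with 1.28% and 1.52% of all genes called in those directions (2.81% in all). A lower count in bulk RNA can come from fewer cells in a cycle phase or from less RNA in each cell, and these cannot be told apart here.

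The members' median log2 fold change was −0.02, that of all genes was 0.00, and 25 members lay above 0 and 28 below. No member changed by more than 0.55 on the log2 scale. The 95% interval of the log2 fold change lay within ±0.5 for 37 of the 53 (69.8%), against 43.3% of all genes, and within ±1 for all 53. The median standard error was 0.13 for the members and 0.18 for all genes, so these shares also depend on how narrow the intervals are. The 3 libraries of one group lay wholly above those of the other for 9 members, which is 5 higher (MCM3, GINS1, PRIM2, RPA1 and E2F8) and 4 lower (CDT1, MCM5, RFC2 and E2F1), where 21.9% of all genes had no overlap.

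**Figure D1:**
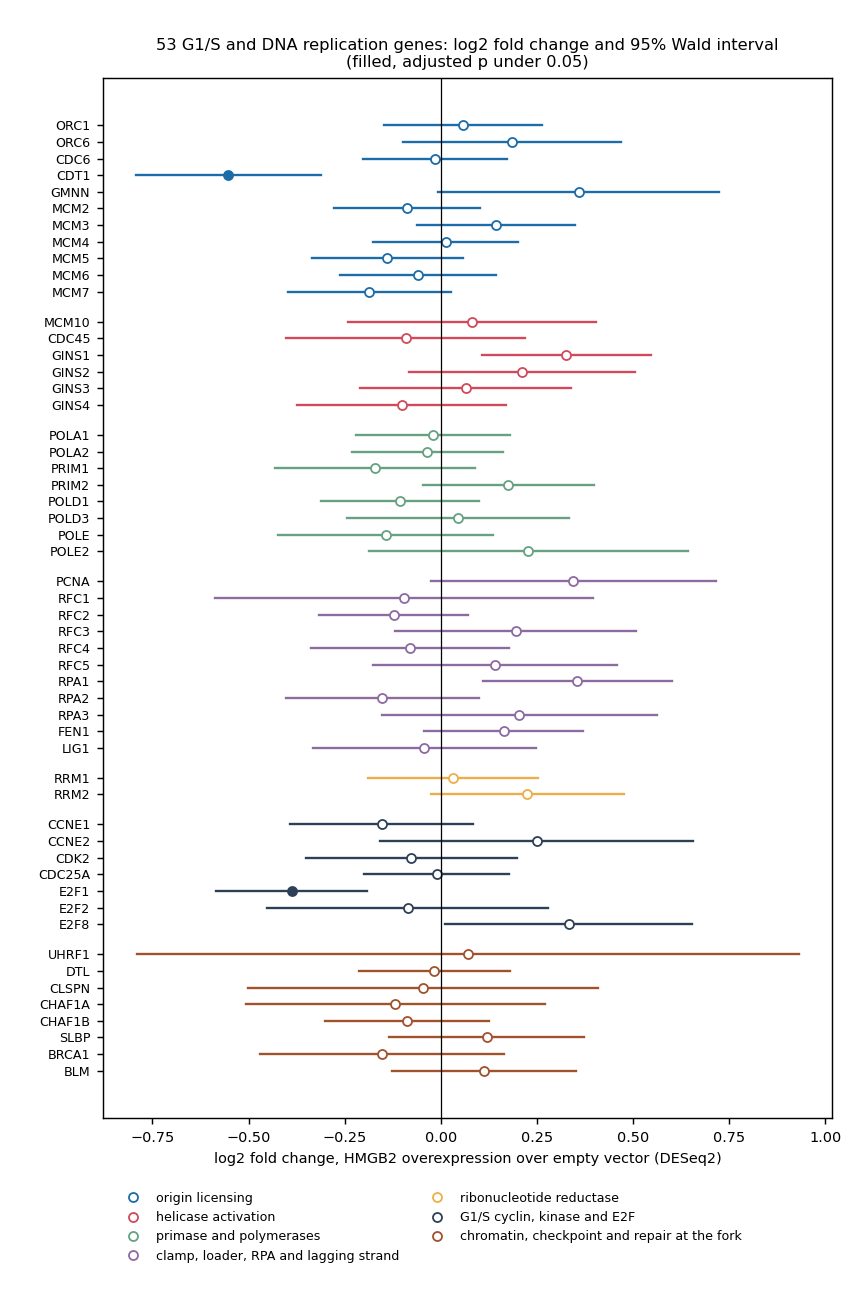
Log2 fold change of HMGB2 overexpression against empty vector for each of the 53 genes, in role groups, with the 95% interval of the DESeq2 model as bars and the called genes marked. CDT1 at −0.55 and E2F1 at −0.39 are the called genes, and the rest straddle 0, with GINS1, RPA1 and E2F8 the intervals that stay above it.

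Among 11 genes of origin licensing, CDT1 fell. This loader of the MCM helicase (ENSG00000167513, chromosome 16, 88803789 to 88809258, plus strand, in hg38) had 6153, 6130 and 5152 normalized counts with the empty vector and 4157, 4157 and 3572 with HMGB2 overexpression. All 3 overexpression libraries lay below all 3 empty vector libraries, and the third replicate was lowest in both groups. The mean went from 5812 ± 571 to 3962 ± 338 (SD, n = 3), a log2 fold change of −0.55 (SE 0.12, 95% interval −0.79 to −0.31, adjusted p = 0.000403 by DESeq2), or 31.8% lower. CDT1 was called lower in all 14 alternatives, with log2 fold changes between −0.63 and −0.48, and edgeR gave an adjusted p of 0.0303.

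GMNN, which encodes the inhibitor of CDT1, had 1402, 1393 and 2056 normalized counts with the empty vector and 1856, 1879 and 2485 with HMGB2 overexpression. Within replicates 1 and 2 the overexpression libraries were higher, but the third empty vector library lay among the overexpression libraries, so the groups overlapped. Its log2 fold change of 0.36 (95% interval −0.01 to 0.72) did not pass the test (DESeq2, adjusted p = 0.367). It ran from 0.21 without overexpression replicate 3 to 0.57 without empty vector replicate 3, where it was called (DESeq2, adjusted p = 0.000282). The ratio of CDT1 to GMNN reads was 4.39, 4.40 and 2.51 with the empty vector and 2.24, 2.21 and 1.44 with overexpression. The groups did not overlap in this ratio, but CDT1 alone already separated them, so the ratio is no separate observation. It was computed after both genes had been seen and is given as a description.

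The helicase itself stayed close to its level with the empty vector. The 6 subunits ran from MCM7 (−0.19, interval −0.40 to 0.03) through MCM5 (−0.14), MCM2 (−0.09), MCM6 (−0.06) and MCM4 (0.01) to MCM3 (0.14, interval −0.06 to 0.35) in log2 fold change, and none was called. MCM2 had 17180, 15965 and 16755 normalized counts with the empty vector and 14544, 16473 and 15916 with HMGB2 overexpression, so its groups overlapped. Per MCM2 read there were 0.358, 0.384 and 0.308 CDT1 reads in the empty vector libraries and 0.286, 0.252 and 0.224 in the overexpression libraries. These ratios did not overlap either, which largely repeats the fall of CDT1 beside a nearly level MCM2 and is given as a description. CDC6, the partner of CDT1 in loading, had a log2 fold change of −0.02 (interval −0.20 to 0.17), and the origin recognition subunits ORC1 and ORC6 had 0.06 (interval −0.15 to 0.26) and 0.19 (interval −0.10 to 0.47).

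**Figure D2:**
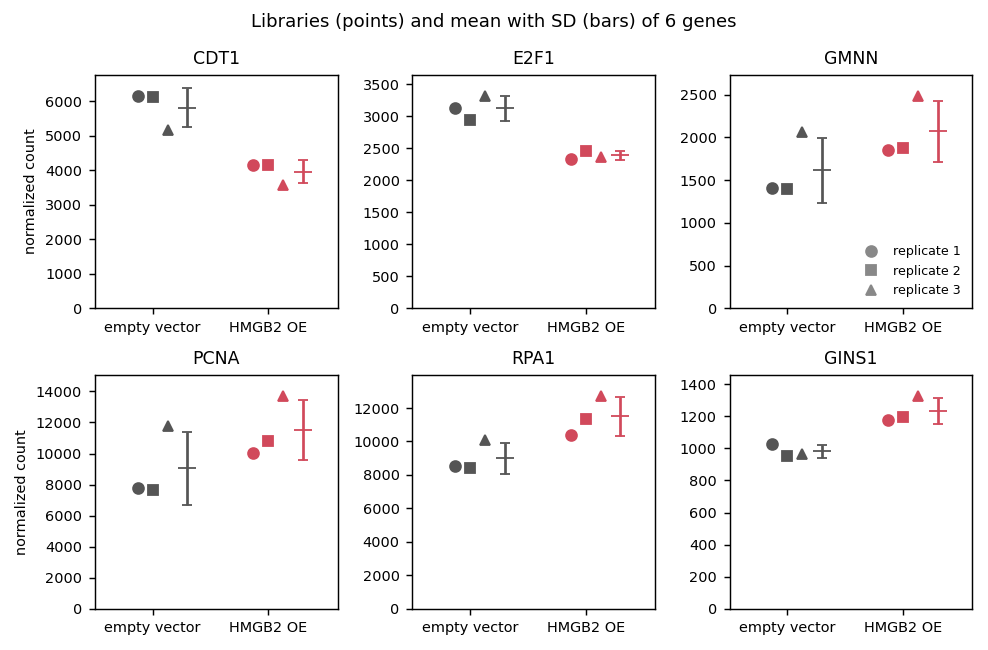
Normalized counts of CDT1, E2F1, GMNN, PCNA, RPA1 and GINS1 in each library, with replicates by symbol and the mean ± SD of 3 libraries as bars. The groups separate for CDT1, E2F1, RPA1 and GINS1, while for GMNN and PCNA the third empty vector library (2056 and 11766) lies among the overexpression libraries.

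Of the 6 genes of helicase activation, none was called. GINS1, a subunit of the GINS complex, had 1027, 955 and 964 normalized counts with the empty vector and 1177, 1193 and 1326 with HMGB2 overexpression. The groups did not overlap, and its log2 fold change of 0.33 (interval 0.11 to 0.55) missed the threshold (DESeq2, adjusted p = 0.0648, and 0.12 by edgeR). GINS2, another subunit, had a log2 fold change of 0.21 (interval −0.08 to 0.51), with libraries of 1538, 1644 and 2096 against 1932, 1899 and 2278. Its groups overlapped through the third empty vector library. GINS3 (0.06, interval −0.21 to 0.34) and GINS4 (−0.10, interval −0.37 to 0.17) completed the complex, and differences between its subunits were not tested. CDC45 (−0.09, interval −0.40 to 0.22) and MCM10 (0.08, interval −0.24 to 0.40), the other helicase factors, had wide intervals around 0.

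None of 8 genes of primase and the polymerases was called, and the interval lay within ±0.5 for 7 of them. The primase subunits lay on opposite sides of 0. PRIM2, the large subunit, had 1014, 967 and 1110 normalized counts against 1214, 1119 and 1155 (log2 fold change 0.18, interval −0.05 to 0.40). PRIM1, the catalytic subunit, had 1866, 1845 and 2294 against 1626, 1787 and 1921 (−0.17, interval −0.43 to 0.09). Only PRIM2 had groups that did not overlap, and it shares 12.8% of its 50-base words with other genes, PRIM2BP among them. Polymerase alpha, which extends the primers, had −0.02 for POLA1 (interval −0.22 to 0.18) and −0.04 for POLA2 (interval −0.23 to 0.16). The catalytic subunits of the leading and lagging strand enzymes, POLE (−0.14, interval −0.42 to 0.14) and POLD1 (−0.11, interval −0.31 to 0.10), had negative values that did not pass the test.

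The clamp, its loader, the single-strand binding complex and the lagging strand enzymes made up 11 members, and none was called. PCNA, the sliding clamp, had 7761, 7650 and 11766 normalized counts with the empty vector and 10017, 10791 and 13698 with HMGB2 overexpression. The third empty vector library lay above overexpression replicates 1 and 2, and the log2 fold change of 0.34 (interval −0.03 to 0.72) was not called (DESeq2, adjusted p = 0.411). It ran from 0.20 without overexpression replicate 3 to 0.58 without empty vector replicate 3, where PCNA was called (DESeq2, adjusted p = 3.27e-05). RPA1, the large subunit of the complex that coats single-stranded DNA, had 8522, 8389 and 10066 against 10412, 11371 and 12714. Its groups did not overlap, and the log2 fold change of 0.35 (interval 0.11 to 0.60) missed the threshold (DESeq2, adjusted p = 0.0787, and 0.144 by edgeR). The smaller subunits had 0.20 (RPA3, interval −0.15 to 0.56) and −0.15 (RPA2, interval −0.40 to 0.10). The 5 subunits of the clamp loader ran from −0.12 (RFC2) to 0.19 (RFC3). FEN1, which trims the flap of a lagging strand fragment, had 0.16 (interval −0.04 to 0.37), and LIG1, which seals it, had −0.04 (interval −0.33 to 0.25).

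Ribonucleotide reductase makes the DNA precursors. Its regulated small subunit RRM2 had 3829, 4300 and 4939 normalized counts with the empty vector and 4786, 4984 and 5505 with HMGB2 overexpression, with overlap through the third empty vector library (log2 fold change 0.23, interval −0.03 to 0.48). The large subunit RRM1 had 0.03 (interval −0.19 to 0.25). Neither was called.

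Within the G1/S group of 7 genes, E2F1 fell. This activator of S phase genes (ENSG00000101412, chromosome 20, 33675477 to 33686385, minus strand) had 3125, 2936 and 3320 normalized counts with the empty vector and 2338, 2465 and 2365 with HMGB2 overexpression. Every overexpression library lay below every empty vector library. The mean went from 3127 ± 192 to 2389 ± 67.1 (SD, n = 3), a log2 fold change of −0.39 (SE 0.10, interval −0.58 to −0.19, adjusted p = 0.00456 by DESeq2), or 23.6% lower. EdgeR gave an adjusted p of 0.0538, short of the threshold, and the call was also lost without empty vector replicate 1 and without each overexpression replicate in turn (DESeq2, adjusted p = 0.0943 to 0.216), while the log2 fold change stayed between −0.43 and −0.33 in all alternatives.

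E2F8, a repressor in the same family, had 201, 257 and 221 normalized counts against 294, 278 and 284, and its groups did not overlap (log2 fold change 0.33, interval 0.01 to 0.65, adjusted p = 0.322 by DESeq2). E2F2, an activator like E2F1, had −0.09 (interval −0.45 to 0.28). CCNE1 and CCNE2, which encode cyclin E, had −0.15 (interval −0.39 to 0.08) and 0.25 (interval −0.16 to 0.66), and their kinase CDK2 had −0.08 (interval −0.35 to 0.20). CDC25A, the phosphatase that activates CDK2, had −0.01 (interval −0.20 to 0.18), with all 6 libraries between 1598 and 1690.

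The 8 genes of chromatin assembly, checkpoint and repair at the fork held no call. BRCA1, a repair factor, had a log2 fold change of −0.15 (interval −0.47 to 0.16), and SLBP, which binds histone mRNA in S phase, had 0.12 (interval −0.13 to 0.37). UHRF1, a maintenance factor of DNA methylation that was singled out after its values were seen, had 2403, 2502 and 1041 normalized counts with the empty vector and 1935, 2699 and 1609 with HMGB2 overexpression. The third replicate was the lowest in both groups, and the interval of its log2 fold change, −0.79 to 0.93, was wide. CHAF1B, of the complex that sets histones behind the fork, had −0.09 (interval −0.30 to 0.13), DTL, which helps to destroy CDT1 protein, had −0.02 (interval −0.21 to 0.18), and BLM, a helicase, had 0.11 (interval −0.13 to 0.35).

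**Figure D3:**
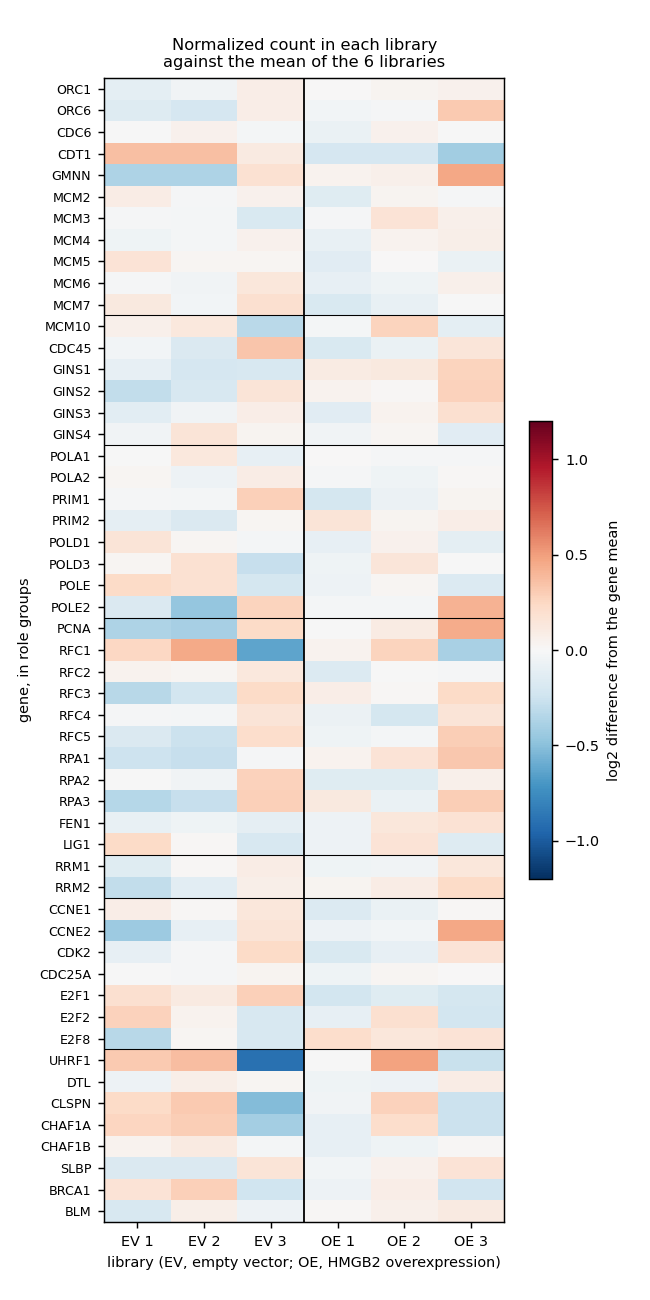
Log2 difference of each gene's normalized count from its mean over the 6 libraries, with genes in rows by role group and libraries in columns. CDT1 and E2F1 change between the groups, whereas UHRF1, RFC1, CLSPN and CHAF1A are lowest in the third library of each group.

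The third replicates stood apart in both groups. In both groups replicate 3 lay above the mean of replicates 1 and 2 for 30 members, in both it lay below for 17, and the groups parted for 6. For 37 of the 53 (69.8%) the third replicate was the highest or the lowest library of both groups, against 53.7% of all genes. Among members with both shifts in the same direction, the shift was the larger in the empty vector group for 35. UHRF1 shifted by −1.24 in the empty vector and −0.51 in the overexpression group on the log2 scale, RFC1 by −0.99 and −0.54, and PCNA by 0.61 and 0.40. RFC1, the large subunit of the clamp loader, was picked after its values were seen, and had 2604, 2999 and 1410 normalized counts with the empty vector and 2254, 2637 and 1674 with overexpression. What sets the third replicates apart was not tested. Multimapped reads made up 10.6% in the third overexpression library and 2.58% to 4.89% in the other 5.

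**Figure D4:**
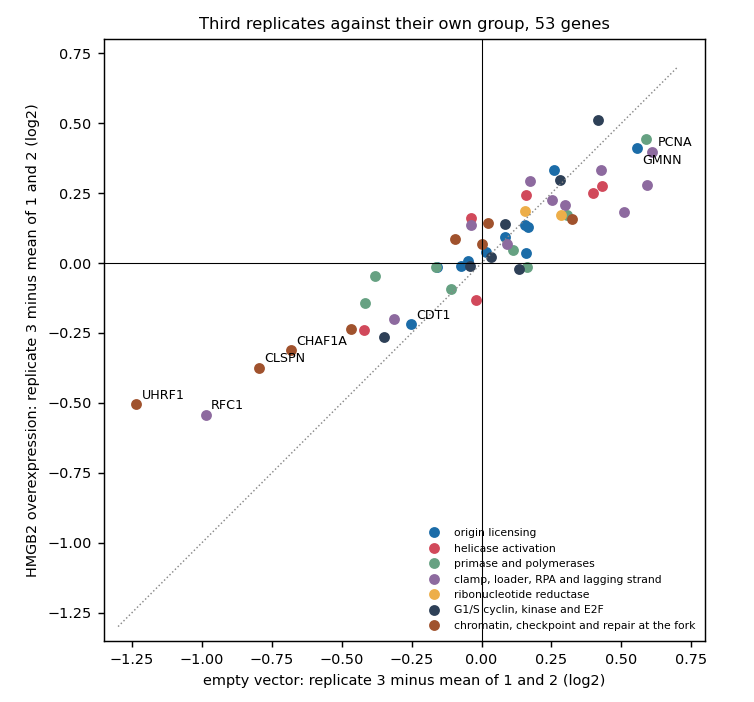
Log2 difference of replicate 3 from the mean of replicates 1 and 2, for the empty vector group (horizontal axis) and the HMGB2 overexpression group (vertical axis), with 1 point per gene coloured by role and a dotted line where both shifts are equal. Most points lie in the quadrants where both shifts have one sign (30 and 17 of 53), with UHRF1 and RFC1 lowest and PCNA among the highest.

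When a term for the third replicates was added to the fit, 7 members were called higher and 3 lower, beside 8.71% and 8.61% of all genes. The 5 of smallest p were CDT1 (DESeq2, log2 fold change −0.55, adjusted p = 1.15e-17), RPA1 (0.36, 1.61e-07), PCNA (0.36, 1.72e-06), E2F1 (−0.39, 4.13e-06) and GMNN (0.37, 3.62e-05). GINS1, GINS2, RFC3 and RRM2 were the other genes called higher, and MCM7 the other called lower. In replicates 1 and 2 alone, 7 were called higher and 4 lower, beside 8.01% and 9.44% of all genes, with RPA3 in place of GINS1 and POLE added on the lower side. Without empty vector replicate 3 the counts were 8 and 3, beside 8.31% and 9.46%. In these 3 fits, 17.3%, 17.4% and 17.8% of all genes were called in either direction. CDT1 and E2F1 were called lower in each of these fits. The term for the third replicates follows a pattern seen in these same libraries and not a label, so its p-values are given as a description.

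Levels can be compared between genes only per length of exon. MCM7 and PCNA stood highest, at 6937 and 6457 normalized counts per kb with the empty vector and 6099 and 8198 with HMGB2 overexpression, and MCM2 followed at 3528 and 3318. The order of MCM7 and PCNA was opposite in the groups, and with an SD of 2345 counts on a mean of 9059 for PCNA the pair did not differ beyond the spread in the empty vector libraries. CDT1 went from 2106 to 1436 per kb and E2F1 from 1162 to 888. CLSPN, a checkpoint mediator, was lowest, at 44.9 and 43.5 per kb, with E2F8 (54.7 and 69.0) and E2F2 (57.3 and 54.0) next to it. Within the MCM helicase, whose subunits join in equal numbers, the level ran from 875 per kb for MCM5 to 6937 for MCM7 in the empty vector libraries. The length used joins the exons of all annotated transcripts of a gene, not only of those expressed. It was 7268 bases for MCM5 and 9852 for MCM4, against 3645 for MCM3 and 4960 for MCM7. The part of this length in the range was not tested.

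**Figure D5:**
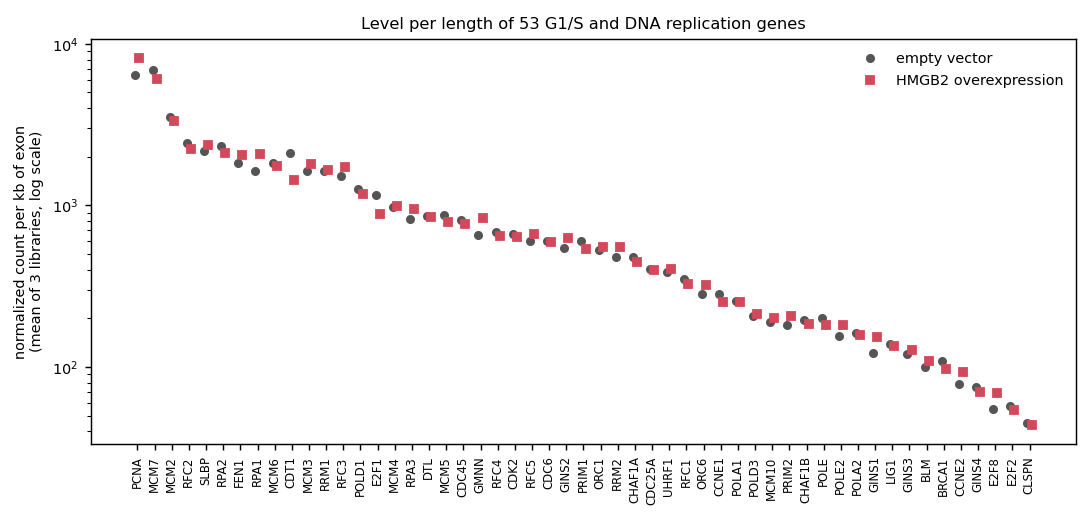
Mean normalized count per kb of annotated exon for the 53 genes on a log scale, in falling order, with empty vector as circles and HMGB2 overexpression as squares (means of 3 libraries, without error bars). PCNA and MCM7 lie highest and CLSPN lowest, and the marks of CDT1 and E2F1 are apart.

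Some members may have been counted from a part of their reads. The count used leaves out reads that fall where genes of both strands overlap, and 42 members kept at least 90% of the reads seen when the strands are counted apart. The library was unstranded, so the reads counted apart can include those of the neighbour. The share is therefore not one of a gene's own reads. Under 70% was kept by CCNE2 (34.9%), CDK2 (37.4%), GINS3 (58.4%), GINS4 (59.9%), PRIM1 (67.4%) and RFC5 (68.6%). Their levels may be too low, by an amount that these shares do not give. CCNE2 also shares 35.2% of its 50-base words with INTS8. When the stranded columns were summed, none of these 6 was called. CDT1 kept 100% and E2F1 100% of their reads, and 1.12% of the words of CDT1 and 0% of those of E2F1 occur in another gene.

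The other genes of the pathway were taken from 3 lists with 80 genes, of which 3 were called higher and 3 lower. Among 27 further genes of the replication machinery only CHTF18, which belongs to an alternative clamp loader, was called. It had 2270, 2188 and 2070 normalized counts against 1671, 1763 and 1589, a log2 fold change of −0.38 (adjusted p = 0.00892 by DESeq2). This call was lost with edgeR (adjusted p = 0.0601) and without each library but empty vector replicate 3. None of 25 genes of nucleotide supply and S phase was called by DESeq2 or edgeR, and 2 had an unadjusted p under 0.05, among them FANCD2 of the Fanconi repair pathway (0.23, interval 0.01 to 0.46).

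The remaining 5 calls stood in a list of 28 genes. It held G1 cyclins, CDK inhibitors and pocket proteins, with further E2F factors and other cell cycle regulators. CDKN2C, an inhibitor of CDK4 and CDK6, rose from 2500, 2562 and 2877 normalized counts to 3563, 3954 and 4132 (0.55 on the log2 scale, adjusted p = 9.48e-05 by DESeq2). CDKN2A, which encodes another such inhibitor, fell from 1139, 832 and 810 to 580, 532 and 504 (−0.78, adjusted p = 0.000161 by DESeq2). In both genes the groups did not overlap, and both calls held in all 14 alternatives. RB1, the retinoblastoma protein that holds E2F1, was called higher (0.35, adjusted p = 0.0378), as was SKP2, which marks CDK inhibitors for destruction (0.44, adjusted p = 0.0499). CCND1, the cyclin D1 gene, was called lower (−0.65, adjusted p = 0.0402), with 28098, 29028 and 16587 against 16840, 17420 and 12851, so that the third empty vector library lay among the overexpression libraries. The calls of RB1, SKP2 and CCND1 were lost with edgeR (adjusted p = 0.106, 0.131 and 0.155) and without each library but empty vector replicate 3.

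Genes of later cycle phases gave other values. Of 46 G2/M and mitosis genes 6 were called higher and 0 lower, with 10 at an unadjusted p under 0.05 and a median log2 fold change of 0.18, against −0.02 for the replication genes and 0.00 for all genes. KIF20A, a kinesin of cell division, rose from 2382, 2526 and 2716 normalized counts to 3597, 3849 and 4038 (0.59, adjusted p = 3.78e-06 by DESeq2), and its call held in all 14 alternatives. BUB1B (0.42), KIF11 (0.38), DLGAP5 (0.42) and NUSAP1 (0.40), which act on the spindle and its checkpoint, were also called higher, and edgeR called 2 of the list. Of 50 replication-dependent histone genes, whose mRNA ends without a poly(A) tail, 16 were called higher with a median of 1.38, and 3 (H2BC5, H1-2 and H2BC12) were called without the third overexpression library. The difference between these lists and the replication genes was not tested.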

How the data were processed

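RNA sequencing of 6 A375 libraries, 3 with an empty vector and 3 with HMGB2 overexpression, was analysed. Per the labels and the study's methods, the authors used bcl2fastq 2.20, FastQC, Trimmomatic and STAR with the build GRCh38, and the other versions were not given in the sources used here. The deposited values are raw read counts of each gene, not normalized by the authors, in which a read mapping to several places or genes is not counted. The 4 summary lines were left out. The column for either strand was used, since the library was unstranded.

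Symbols and exon lengths came from GENCODE on hg38. All 53 members entered a DESeq2 1.42.0 Wald test with default parameters in R 4.3.3, fitted over all genes, with a call at a Benjamini-Hochberg adjusted p under 0.05. Of 58302 IDs, 32925 had a count and 18836 received an adjusted p. Intervals are 95% Wald intervals of unshrunken log2 fold changes. EdgeR 4.0.16 with TMM factors and its quasi-likelihood test, other filters, count columns and terms, and leaving out each library were alternatives. The scripts were tested on simulated data. There DESeq2 recovered 10.45% of 67 genes changed 1.25-fold, 56.72% of 67 changed 1.5-fold and 83.33% of 66 changed 2-fold. EdgeR recovered 5.97%, 44.78% and 78.79%. Of the simulated calls, 13.0% were false with DESeq2 and 6.52% with edgeR, above the threshold of 0.05.

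The members and lists were chosen with earlier results of these data known. The genes named were those called or, with fewer than 2 calls in a role group, those of smallest p, those at the extremes of level and those called with a term for the third replicates, and the other genes named were added to cover each role. The values of 2 genes of the other lists are not reported here.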

Additional observations from a re-analysis of the deposited data

Results flagged for a closer look

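Multimapped reads enter no gene's count, and their share was above that of every empty vector library in 2 overexpression libraries. It was 4.89% in replicate 1 and 10.6% in replicate 3, against 2.58% to 3.96% with the empty vector, and an exact two-sided permutation test between the groups gave p = 0.2. The 53 replication genes took 0.379% of the gene counts in replicate 1 and 0.411% in replicate 3, beside 0.393% to 0.416% with the empty vector. The part of multimapped reads in the members' counts was not tested.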

How the results depend on the processing

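HMGB2 stayed called in all 14 alternatives, and without 1 library its log2 fold change was 0.98 to 1.09. The members called were 0 higher and 2 lower in the fit as reported. EdgeR gave 1 lower, the term for the third replicates 7 higher and 3 lower, and a fit of replicates 1 and 2 alone 7 higher and 4 lower. Leaving out 1 library gave 0 to 8 higher and 1 to 3 lower, with the highest counts without empty vector replicate 3. The members' median stayed between −0.02 and 0.04 without 1 library.

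Over all genes, 432 were called higher and 498 lower, against 215 and 255 with edgeR, 1374 and 1359 with the term, 1203 and 1418 in replicates 1 and 2 alone, and 155 to 1334 and 208 to 1520 without 1 library. Of the 80 other pathway genes, 3 were called in each direction, against 1 and 1 with edgeR, 1 higher without the independent filter, 11 higher with the term, 12 and 6 in replicates 1 and 2 alone, and 1 to 13 and 1 to 6 without 1 library. The 6 G2/M calls became 2 with edgeR, 19 with the term, 19 and 1 lower in replicates 1 and 2 alone, and 1 to 19 higher and 0 to 1 lower without 1 library. The 16 histone calls became 3 with edgeR, 10 without the independent filter, 5 in replicates 1 and 2 alone and 3 to 18 without 1 library. The causes were not tested.

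With the replicate number as a block, 5 members (GINS1, GMNN, PCNA, RPA1 and RRM2) were called higher and CDT1 and E2F1 lower, beside 886 and 940 of all genes, with 11 of the other pathway genes and 15 of the G2/M genes higher. The share of all genes called in this fit is not given here, so the members' counts are not read against it. Deviations of same-numbered libraries correlated at 0.0906, 0.142 and 0.349, and empty vector replicate 1 correlated best with overexpression replicate 2, so the numbers were not taken as pairs. The third libraries correlated with each other most. With replicates 1 and 2 of the other group they correlated at −0.27 to −0.14. These values are no separate observation, since the deviations within a group cancel out. Among the named members and the members' median, 197 values counted as unchanged, while 22 passed the threshold newly and 5 lost it. A gene counted as unchanged if it kept its side of the threshold. The median did so if it moved by less than the larger group SD of the library medians. Uncalled genes could change sign and still count as unchanged, as CLSPN did, from −0.05 to 0.10 without empty vector replicate 2. The members' median standard error was 0.13 on the log2 scale.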
